A study of Mus musculus with 2 samples.

Results

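Genes of the pancreatic acinar cell were followed in RNA of the gastric corpus epithelium. The 38 genes were taken from a list of acinar digestive enzymes, zymogen granule proteins and acinar transcription factors. The list was chosen with earlier results of these data known. All 38 were found by gene symbol among the 37681 gene identifiers of the count files. The tissue was the epithelium of the stomach corpus, the acid-secreting body of the stomach, of C57BL/6 mice carrying an Hdc-CFP transgene. The transgene marks cells that use Hdc, whose product is the histamine-making enzyme histidine decarboxylase, with the fluorescent protein CFP. One library came from cells sorted as positive for Hdc-CFP (the sorted library) and the other from corpus epithelial cells from which such cells had been depleted (the depleted library). Both groups carried the transgene, and neither the age nor the number of the mice was given in the sources used here. The study asked where the Hdc-positive cells of the corpus come from.

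Acinar cells of the pancreas make most of the enzymes that digest protein, fat, starch and nucleic acids in the gut, and store them in zymogen granules as inactive precursors or with their cofactors. Their enzyme genes are driven by PTF1, a complex of PTF1A, a common E protein and RBPJL, the acinar form of the Notch pathway factor RBPJ, together with the nuclear receptor NR5A2. The stomach has its own exocrine cell, the chief cell, which stores pepsinogen, and its histamine-making endocrine cell, the enterochromaffin-like (ECL) cell, which stores chromogranins and histamine.

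Gene counts came to 10736538 after sorting and to 50928524, 4.74 times as many, in depleted cells. Levels are given as normalised CPM, the counts of a gene per 1000000 counts of its library after scaling by trimmed-mean (TMM) factors, and a fold is the ratio of normalised CPM with an exact 95% interval for counting error in brackets. Each group was 1 library, so no difference has a replicate check, no p-value is given, and the values describe these libraries. Hdc stood at 8750.2 CPM after sorting and 21.2 CPM in depleted cells, and the other ECL gene Chga, for chromogranin A, at 63985 CPM after sorting and 164 CPM in depleted cells (413-fold [388 to 441] and 391-fold [382 to 400.4] higher in the sorted library). Pgc, the pepsinogen C gene of chief cells, was 3.98-fold [3.97 to 4.003] lower there at 15187 CPM. In bulk RNA, fewer cells of a type and less RNA per cell cannot be told apart.

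The acinar genes divided into a group higher in the sorted library, a group at or close to 0 in both, and a group as high or higher in the depleted library. Of the 38 genes, 27 were measured, that is, reached 10 counts in either library. A gene was called higher or lower when its fold reached 2 and its interval did not include 1. By this rule 15 members were higher and 8 lower in the sorted library, or 55.6% and 29.6% of those measured, where 21.9% of all 16682 measured genes were called higher and 22.3% lower. With a 4-fold call and an interval beyond 2-fold, 15 of the 27 measured members were higher and 2 lower. Cela1, Try10, Rnase1, Reg3g, Sycn and Klk1 lost the call. The share of all genes called by this stricter rule was not computed. Leaving out the 9 measured members that share over 10% of their 50-base words with other genes left 9 higher and 6 lower of 18. Among those left out, Amy1, Cela2a, Dnase1 and Ptf1a share their words mostly with genes that overlap them. Without a scaling factor the calls over all genes were 4741 higher and 2853 lower in place of 3652 and 3723. The median log2 fold (0.5, scaled to library size, added to the counts) was 2.90 over the measured members and -0.05 over all measured genes. Of the 27 measured genes, 8 had under 10 counts in 1 of the libraries and could enter only through the other (5 through the sorted and 3 through the depleted library). Among members with counts in both libraries, 9 of 26 were at least 100-fold higher, while 2.36% of all such genes were. The intervals of Cela3b, Gp2 and Cela2a among them reached below 100. Gp2 stood at 95.6-fold with TMM factors on all genes. Because members were chosen with earlier results of these data known, these comparisons with all genes are not independent of the libraries. Summed over all 38 genes, acinar messages made up 1.996% of the counts after sorting and 0.897% in depleted cells.

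**Figure D1:**
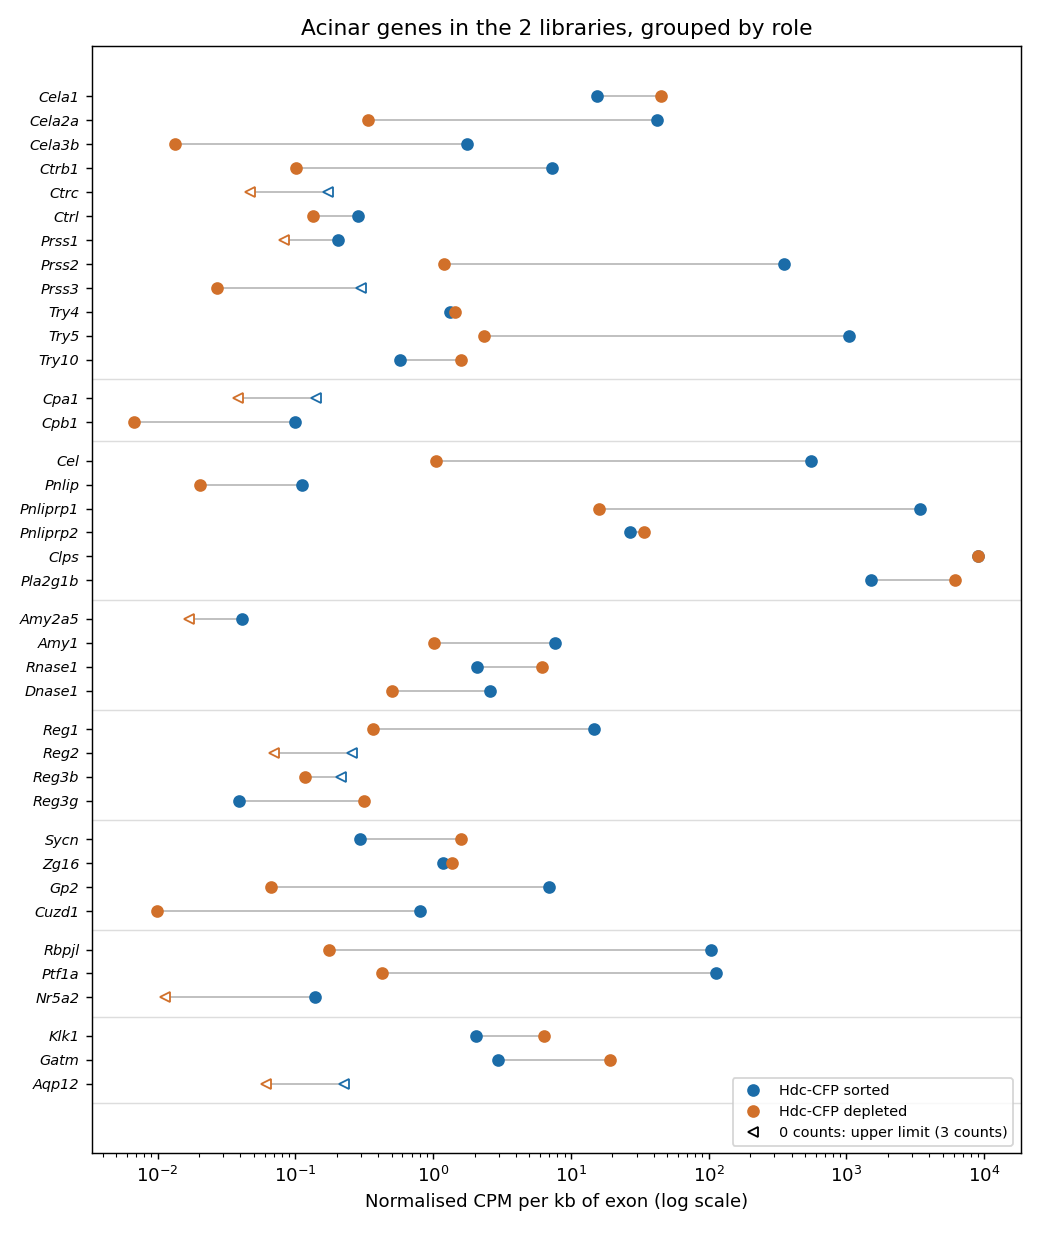
Level of each of the 38 acinar genes as normalised CPM per kb of exon on a log axis, blue for the sorted and orange for the depleted library, with 1 point per library and genes grouped by role in the order serine proteases, carboxypeptidases, lipases and cofactors, amylases and nucleases, Reg lectins, granule proteins, transcription factors and others. Open triangles mark 0 counts, drawn at a floor of 3 counts. Clps, whose points coincide, had the highest value in both libraries, and Cpa1, Ctrc, Reg2 and Aqp12 were at 0 in both.

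All 3 acinar transcription factor genes were higher in the sorted library, the 2 genes of PTF1 subunits at high levels. Rbpjl (ENSMUSG00000017007) had 7326 against 45 counts, or 602 CPM after sorting and 1.002 CPM in depleted cells. It was 600.3-fold [448 to 824] higher, the largest of the 26 member folds with counts in both libraries, and it ranked 104 among all genes by counts in the sorted library. Ptf1a (ENSMUSG00000026735) had 2067 against 29 counts, or 169.7 against 0.646 CPM, and was 263-fold [182 to 393] higher. Per kb of exon both genes stood at similar levels in the sorted library, 105 CPM per kb for Rbpjl and 113 for Ptf1a. Nr5a2 had 10 counts after sorting and 0 in depleted cells, at least 8.27-fold higher by the exact interval. Against a floor of 3 counts the ratio was 12.3, which leaves out the counting error of the 10 counts. Its level of 0.139 CPM per kb lay far under that of the other two. The interval of Rbpjl lay above those of Hdc and Chga, the genes of the sorted cells themselves, and that of Ptf1a reached the interval of Chga from below. The ratio of Ptf1a to Chga counts was 0.00265 after sorting and 0.00395 in depleted cells, and that of Rbpjl to Chga was 0.00940 after sorting and 0.00613 in depleted cells.

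The strand setting of the counting is not known, so how reads in the overlap of a gene and an antisense gene were assigned is not known. They may have been set aside as ambiguous or given to either gene. Ptf1a overlaps the antisense gene Ptf1aos, which had 15 counts against 0, and 35.4% of the 50-base words of Ptf1a transcripts occur in it. Rbpjl overlaps Matn4 on the opposite strand over 1.28% of its words. Matn4, a matrilin gene named after its value was seen, had 712 counts against 9.

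Other factors of acinar cells that are also active elsewhere in the gut did not show folds of that size. Of 10 genes in this group, all measured, 0 were called higher and 2 lower. For this and the lists below, 21.9% of all measured genes were called higher and 22.3% lower. The partners that PTF1 shares with other complexes were close to equal in the libraries, with Rbpj at 0.965 [0.804 to 1.15], Tcf3 at 1.14 [1.04 to 1.26] and Tcf12 at 1.04 [0.978 to 1.12] as sorted-to-depleted ratios; these 3 genes and Bhlha15 were chosen after their values were seen. Xbp1, a regulator of the secretory apparatus, stood at 638 against 341 CPM, a ratio of 1.87 [1.82 to 1.92], and Bhlha15, which encodes the exocrine factor MIST1, at a ratio of 1.90 [1.65 to 2.18]. These 2 were not called with trimmed-mean factors, and both were called higher without a factor and without the 20 most abundant genes. Gata4 and Gata6, which also serve the gastric epithelium, were 3.71-fold [3.54 to 3.88] and 2.58-fold [2.41 to 2.77] lower in the sorted library. Creb3l1, a factor of secretory cells, was not called, at a ratio of 0.596 [0.556 to 0.638].

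PTF1 is known to bind a bipartite site, an E-box (CANNTG) followed on the same strand by a TC box (TTTCCC) 1 or 2 helical turns away. The stretch from 250 bases before to 49 bases after the start site was taken from RefSeq (build GRCm38.p6, whereas the counts were made on mm9) for 33 of the 38 genes and searched on both strands for CANNTG and TTTCCC with 3 to 7 or 13 to 17 bases between them. Clps, Ctrc, Try5, Try10 and Zg16 had no sequence to search. Such a pair was found near 5 of the 33 genes, and in 1.23% of all 32851 stretches of that length. Here and below, members were counted by gene over 36 stretches, while the share over all was counted by stretch, so the units differ. The 5 genes fell on every side of the counts: Cel and Ctrb1 were far higher in the sorted library, Cela1 was lower, and Cpa1 and Prss1 were not measured. Their stretches are shown from 250 bases before to 7 bases after the start site, with the E-box and the TC box in capitals. Cel lies at chr2:28563396-28563653, minus strand, Ctrb1 at chr8:111691003-111691260, minus strand, Cela1 at chr15:100687913-100688170, minus strand, Cpa1 at chr6:30638968-30639225, plus strand, and Prss1 at chr6:41458680-41458937, plus strand.
Cel: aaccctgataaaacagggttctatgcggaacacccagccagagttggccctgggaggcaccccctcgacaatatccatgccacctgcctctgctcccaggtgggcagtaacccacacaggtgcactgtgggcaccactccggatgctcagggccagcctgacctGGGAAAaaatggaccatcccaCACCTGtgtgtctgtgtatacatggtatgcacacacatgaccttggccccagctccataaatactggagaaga
Ctrb1: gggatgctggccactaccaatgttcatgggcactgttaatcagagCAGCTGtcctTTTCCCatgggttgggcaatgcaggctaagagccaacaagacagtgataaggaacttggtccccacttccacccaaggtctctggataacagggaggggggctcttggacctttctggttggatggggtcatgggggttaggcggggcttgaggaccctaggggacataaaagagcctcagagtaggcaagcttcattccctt
Cela1: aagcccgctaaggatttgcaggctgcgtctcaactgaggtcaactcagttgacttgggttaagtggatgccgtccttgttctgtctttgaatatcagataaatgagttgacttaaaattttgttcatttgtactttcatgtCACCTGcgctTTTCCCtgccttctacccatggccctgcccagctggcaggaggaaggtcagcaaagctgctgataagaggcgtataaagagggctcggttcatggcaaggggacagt
Cpa1: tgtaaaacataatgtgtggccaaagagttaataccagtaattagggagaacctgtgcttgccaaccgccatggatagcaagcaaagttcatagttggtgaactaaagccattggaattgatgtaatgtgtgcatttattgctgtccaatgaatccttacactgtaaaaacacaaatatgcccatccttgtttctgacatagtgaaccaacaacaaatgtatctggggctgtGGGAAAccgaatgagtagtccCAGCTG
Prss1: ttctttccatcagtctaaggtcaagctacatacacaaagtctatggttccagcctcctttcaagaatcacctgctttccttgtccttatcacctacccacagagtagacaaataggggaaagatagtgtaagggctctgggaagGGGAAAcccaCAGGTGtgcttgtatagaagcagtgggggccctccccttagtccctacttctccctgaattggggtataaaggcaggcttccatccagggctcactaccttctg

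In Cela1 and Ctrb1 the pair reads in the direction of the gene, and in Cel, Cpa1 and Prss1 on the other strand, where the TC box appears as its reverse complement, GGGAAA. Pnliprp1 and Prss2, both over 200-fold higher in the sorted library, had no such pair in the same window. Their sequences are printed for comparison, with no capitals, and lie at chr19:58728637-58728894, plus strand for Pnliprp1 and chr6:41521526-41521783, plus strand for Prss2.
Pnliprp1: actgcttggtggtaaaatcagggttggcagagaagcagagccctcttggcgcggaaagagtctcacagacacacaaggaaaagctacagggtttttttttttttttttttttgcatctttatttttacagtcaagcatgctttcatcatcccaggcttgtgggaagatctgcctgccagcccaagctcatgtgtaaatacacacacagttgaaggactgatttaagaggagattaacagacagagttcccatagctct
Prss2: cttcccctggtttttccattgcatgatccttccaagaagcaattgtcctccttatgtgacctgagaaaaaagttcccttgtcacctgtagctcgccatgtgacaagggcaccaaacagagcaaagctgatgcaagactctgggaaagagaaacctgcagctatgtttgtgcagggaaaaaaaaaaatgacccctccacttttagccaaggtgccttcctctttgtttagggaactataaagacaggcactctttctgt

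Over the members by call, the pair occurred in 2 of the 14 higher genes with a sequence, 1 of the 7 lower, 0 of the 2 called neither way and 2 of the 10 not measured. CAAGGNCA, the core of the motif bound by NR5A2, occurred near 4 of the 14 higher and 4 of the 7 lower genes, and in 6.71% of all stretches. TATAAA occurred near 6 of the 14 higher, 2 of the 7 lower and 7 of the 10 unmeasured genes, against 13.6% of all stretches. CANNTG alone was in 72.3% of all stretches and TTTCCC alone in 25.2%, and both are part of the pair. A match describes letters and not binding, and these windows and motifs were chosen after the counts were seen.

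**Figure D2:**
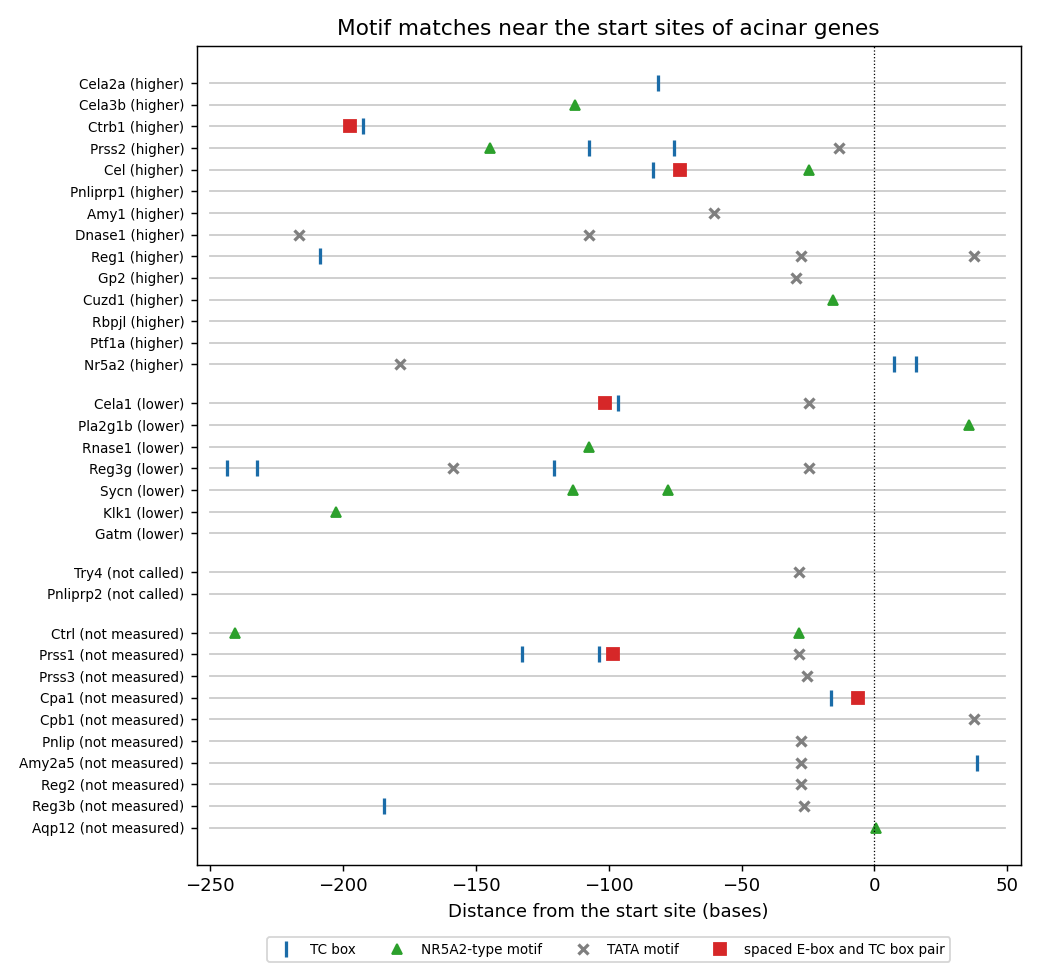
Positions of motif matches around the start sites of 33 acinar genes, with distance in bases from the start site on the x axis and genes ordered by call on the y axis (the starts of a gene with several share its line). The red squares, the spaced pair of E-box and TC box, stand near Ctrb1, Cel, Cela1, Prss1 and Cpa1, which belong to 3 different classes of call.

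Among 12 serine protease genes, 8 were measured, of which 5 were higher and 2 lower in the sorted library. Trypsinogens, the precursors of trypsin, are made from a cluster of similar genes on chromosome 6. Try5 (ENSMUSG00000036938) had 11524 against 95 counts, or 946 CPM after sorting and 2.12 CPM in depleted cells, and was 447-fold [366 to 553] higher. Prss2 had 3483 against 44 counts and was 292-fold [217 to 402] higher. These 2 genes held nearly all counts of the 6 trypsinogen genes after sorting. The nearest neighbour of Try5, Try4, had 13 against 52 counts, a sorted-to-depleted ratio of 0.922 [0.460 to 1.72], which rises above 1 without a scaling factor or without the 20 most abundant genes. Try10 had 6 against 62 counts and was 2.80-fold [1.22 to 7.93] lower, a call that is lost without a scaling factor. Prss1 had 2 counts against 0, and Prss3 had 0 against 1. High and low counts thus stood side by side: Prss1 is the neighbour of Prss2, and Try5 lies between Try4 and Try10. Shared sequence, described next, limits these counts, so a contrast in expression between neighbours cannot be read from them.

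The trypsinogen genes are so alike that short reads can match several of them, and the files set such reads aside as not unique. The first 90 coding bases, which hold the signal and activation peptides, show this. Capitals mark bases that differ from Try5.
Try5: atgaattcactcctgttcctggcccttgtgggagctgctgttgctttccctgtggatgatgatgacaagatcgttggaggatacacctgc
Try4: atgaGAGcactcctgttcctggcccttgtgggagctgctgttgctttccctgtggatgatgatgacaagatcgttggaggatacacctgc
Prss2: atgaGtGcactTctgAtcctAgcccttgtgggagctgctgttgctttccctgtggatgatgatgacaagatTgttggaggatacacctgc
Prss1: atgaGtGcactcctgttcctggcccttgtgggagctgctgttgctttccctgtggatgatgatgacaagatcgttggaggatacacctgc
Prss3: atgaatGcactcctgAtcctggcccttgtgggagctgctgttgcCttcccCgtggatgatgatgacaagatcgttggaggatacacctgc
Try10: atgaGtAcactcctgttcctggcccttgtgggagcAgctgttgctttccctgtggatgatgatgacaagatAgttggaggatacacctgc

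Within this stretch Try4 differed from Try5 at 3 bases, Prss1 at 2, Prss3 and Try10 at 4 each, and Prss2 at 6. Over the 741 coding bases Try4 was 97.4% and Prss2 90.3% identical to Try5, with the other 3 genes between them. Of the 50-base words of Try5 transcripts 47.6% occur in another gene, of Try4 65.6%, of Prss3 66.1%, of Prss1 54.9%, of Try10 40.8% and of Prss2 7.83%. The levels of all but Prss2 are therefore uncertain and the counts of Prss1 and Prss3 do not show that these genes were silent. Prss2 was the trypsinogen gene with the smallest shared fraction.

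The elastase and chymotrypsinogen genes were likewise split. Cela2a had 892 against 26 counts, or 73.3 against 0.579 CPM, and was 127-fold [85.8 to 195] higher in the sorted library. Cela3b, of another elastase subgroup, had 36 counts against 1, a ratio of 133 [22.4 to 5387], and 19.2% of its words are shared with Cela3a. Ctrb1, which encodes chymotrypsinogen B, had 78 counts against 4 and was 71.9-fold [27.0 to 270.5] higher. Cela1 went the other way, with 435 against 4710 counts, or 35.7 CPM after sorting and 105 CPM in depleted cells, and was 2.94-fold [2.66 to 3.25] lower. At 45.5 CPM per kb it was the most abundant serine protease of the list in the depleted library. In the sorted library that place belonged to Try5 at 1049 CPM per kb, followed by Prss2 at 351, Cela2a at 42.5 and Cela1 at 15.5. Ctrl, a chymotrypsin-like protease gene, had 4 counts against 7 and was not measured. Ctrc, for chymotrypsin C, was listed at 0 in both libraries. The exons of Ctrc overlap those of Cela2a on the same strand and Casp9 on the other, and reads that fit 2 genes were set aside as ambiguous in the files.

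**Figure D3:**
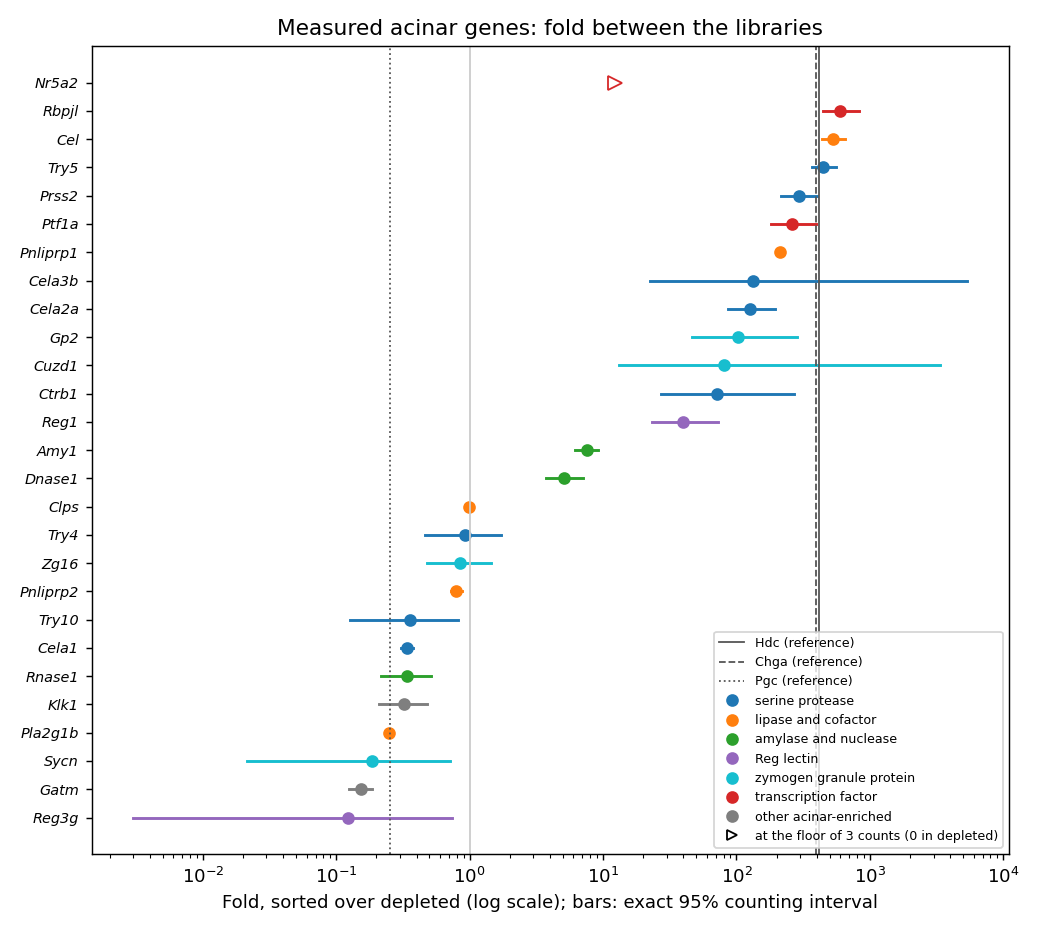
Fold of the 27 measured acinar genes between the sorted and depleted libraries on a log axis, with exact 95% counting intervals as bars and colours for roles; the open triangle is Nr5a2 at the floor of 3 counts, and vertical lines mark Hdc, Chga and Pgc. Try5, Cel and Rbpjl lie beyond the line of Hdc at 413-fold, and Pla2g1b lies beside that of Pgc.

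Genes of fat digestion held most of the acinar reads in both libraries, 1.75% of all gene counts after sorting and 0.880% in depleted cells. Clps was a leading gene of this group in both libraries, beside Pnliprp1 after sorting and Pla2g1b in depleted cells. Pnliprp1 (ENSMUSG00000042179), a relative of pancreatic lipase, had 92581 against 1602 counts, or 7603 CPM after sorting and 35.7 CPM in depleted cells. It ranked 4 among all genes by counts after sorting and 5388 in depleted cells, a difference of 213-fold [203 to 224]. Cel, the bile salt-activated lipase gene, had 14273 against 99 counts, ranked 37 in the sorted library and was 532-fold [436 to 655] higher. Set against Chga, the ratio of Cel counts was 0.0183 after sorting and 0.0135 in depleted cells, and that of Pnliprp1 counts 0.119 after sorting and 0.218 in depleted cells. Relative to Chga, Cel was thus 1.36 times and Pnliprp1 0.545 times as high after sorting as in depleted cells.

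Colipase and the pancreatic phospholipase A2 did not follow these lipases. Clps, the gene of the colipase cofactor that anchors pancreatic lipase to fat droplets, had 66999 against 248980 counts, or 5502 CPM after sorting and 5545 CPM in depleted cells. Its sorted-to-depleted ratio was 0.992 [0.984 to 1.001], so the libraries did not differ beyond counting error with trimmed-mean scaling, while the ratio was 1.28 without a factor, 1.15 without the 20 most abundant genes and 1.02 with upper-quartile factors. At 9005 and 9075 CPM per kb Clps was the most abundant acinar gene of both libraries. Pla2g1b, the gene of the secreted phospholipase A2 of pancreatic juice, had 13125 against 195268 counts, or 1078 CPM after sorting and 4349 CPM in depleted cells, and was 4.03-fold [3.96 to 4.11] lower. This was close to the fold of Pgc, and the ratio of Pla2g1b to Pgc counts was 0.0710 after sorting and 0.0719 in depleted cells. The ratio of Clps to Pgc was 0.362 after sorting and 0.0916 in depleted cells.

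The other lipases of the family, which lie next to Pnliprp1, stood far below Pnliprp1 within the sorted library. Between the libraries Pnliprp2 was not called, and Pnlip was not measured. Pnliprp2, a lipase that also acts on galactolipids, had 517 against 2404 counts, or 42.5 CPM after sorting and 53.5 CPM in depleted cells, with a sorted-to-depleted ratio of 0.793 [0.720 to 0.872] that reaches 1.02 without a scaling factor. Pnlip, the gene of pancreatic triglyceride lipase itself, had 3 counts against 2. None of the 50-base words of Pnliprp1, Pnlip or Pnliprp2 occur in another gene. On the scale of CPM per kb in the sorted library, Pnliprp1 stood at 3420.1, Pnliprp2 at 27.0 and Pnlip at 0.112. Among 12 measured lipase genes outside the list 1 was higher and 6 were lower, where 21.9% and 22.3% of all measured genes were. The higher one was Dagla, a diacylglycerol lipase gene, at 4.09-fold [3.75 to 4.47]. Lpl (depleted-to-sorted ratio 1.49 [1.39 to 1.595]) and Pnpla2 (1.56 [1.45 to 1.67]) were not called, and Liph was 6.01-fold [5.22 to 6.95] lower.

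Both pancreatic carboxypeptidase genes were at or close to 0. Cpa1, one of the most abundant messages of the pancreas, was listed at 0 in both libraries, which allows up to 0.246 CPM after sorting and 0.0668 CPM in depleted cells. Cpb1 had 4 counts against 1. Neither gene shares any 50-base word with another gene. Of other carboxypeptidase genes, 5 of 8 measured were higher in the sorted library and 2 lower, 1 of them (Cpd) not without a scaling factor. The shares over all measured genes were 21.9% higher and 22.3% lower. Cpe, which processes prohormones, stood at 1194 against 9.53 CPM, Cpn1 at 516 against 71.9 CPM, Cpq at 130.2 against 39.5 CPM and Cpd, lower in the sorted library, at 366 against 863 CPM. Their folds of sorted over depleted were 125-fold [114 to 138] for Cpe, 7.17-fold [6.87 to 7.48] for Cpn1 and 3.29-fold [3.08 to 3.53] for Cpq, and Cpd was 2.36-fold [2.28 to 2.43] lower.

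Amylase and nuclease genes had low counts. Amy1, the amylase gene also used in salivary gland and liver, had 320 against 157 counts and was 7.52-fold [6.19 to 9.16] higher in the sorted library. Its exons overlap Rnpc3 on the same strand, and 33.3% of its words are shared, 31.8% with Rnpc3 itself, so its counts are uncertain. Amy2a5, a pancreatic amylase gene with near-identical copies, had 2 counts against 0, and 53.5% of its words occur in other genes, so its expression cannot be read from these counts. Amy2b, an amylase gene outside the list, had 393 against 4 counts (362-fold [140.4 to 1336] higher) and shares 40.2% of its words. Dnase1, a secreted endonuclease gene, had 97 against 70 counts and was 5.11-fold [3.72 to 7.05] higher, with an antisense gene and Trap1 overlapping it on the opposite strand. Rnase1, the gene of pancreatic ribonuclease, had 25 against 273 counts and was 2.96-fold [1.96 to 4.66] lower.

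The Reg genes encode small secreted lectins, found in pancreatic juice and, for the Reg3 group, active against gut bacteria. Reg1 had 162 against 15 counts, or 13.3 against 0.334 CPM, and was 39.8-fold [23.4 to 72.8] higher in the sorted library. Reg3g had 1 count against 30, a depleted-to-sorted ratio of 8.14 [1.35 to 332]. Reg3b, with 0 counts against 6, was not measured, and Reg2 was listed at 0 in both libraries. Of Reg3a, Reg3d and Reg4, outside the list, Reg4 alone was measured, with 4 counts against 30 and a ratio of 2.03 [0.717 to 7.95], and was not called.

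Genes of zymogen granule proteins were measured in 4 of 4 cases, all at low levels. Gp2, the gene of the main granule membrane glycoprotein, had 168 counts against 6 and was 103-fold [46.5 to 285] higher in the sorted library. Cuzd1, another acinar membrane protein gene, had 22 counts against 1, a ratio of 81.1 [13.1 to 3348]. Sycn, for syncollin, a protein of the inner granule membrane, had 2 counts against 40, a depleted-to-sorted ratio of 5.42 [1.41 to 46.3]. Zg16, a granule lectin gene, had 18 against 78 counts and did not differ beyond counting error, at a sorted-to-depleted ratio of 0.851 [0.480 to 1.43] that passes 1 without a scaling factor. In the sorted library the levels of these 4 genes ran from 0.295 CPM per kb for Sycn to 6.91 for Gp2, the latter near those of Ctrb1 (7.30) and Amy1 (7.63).

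The 3 remaining genes were lower in the sorted library or listed at 0. Gatm, for the first enzyme of creatine synthesis, stood at 8.87 CPM after sorting and 58.1 CPM in depleted cells and was 6.56-fold [5.41 to 8.02] lower. Klk1, the gene of tissue kallikrein, had 27 against 310 counts and was 3.11-fold [2.10 to 4.80] lower, and 24.0% of its words are shared, most of them with Klk1b5. Aqp12, a water channel gene of acinar cells, was listed at 0 in both libraries.

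In all, 9 of the 38 genes had at most 5 counts in each library: Ctrc, Prss1, Prss3, Cpa1, Cpb1, Pnlip, Amy2a5, Reg2 and Aqp12. Ctrl and Reg3b, with at most 7, complete the 11 that were not measured. Of these 11, 6 share no 50-base word with another gene (Cpa1, Cpb1, Ctrl, Pnlip, Reg3b and Aqp12). For these 6 the counts are not limited by shared words in the annotation used here. At the depth of the sorted library a count of 0 allows up to 0.246 CPM, while Pnliprp1 stood at 7603 CPM. Next to high Cel, Pnliprp1, Try5, Prss2, Rbpjl and Ptf1a, the sorted library thus had no count of Cpa1 and 0.246 CPM of Pnlip.

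Further genes of acinar cells, 14 of which were matched by symbol, were measured in 5 cases, with 2 higher and 1 lower. Cckar, the receptor through which cholecystokinin drives acinar secretion, stood at 187 CPM after sorting and 39.8 CPM in depleted cells and was 4.71-fold [4.43 to 5.02] higher. The other higher gene was Amy2b, described above. Pdia2, a disulfide isomerase gene of the pancreas, was 3.32-fold [3.12 to 3.54] lower in the sorted library, and Tmed6 was not called (depleted-to-sorted ratio 1.48 [1.33 to 1.64]). Spink1, for the trypsin inhibitor packed with trypsinogen in the granule, had 4 counts against 5, and Serpini2, for another acinar inhibitor, was at 0 in both; these 2 were chosen after their values were seen. Of 6 receptor genes for signals that stimulate acinar secretion, 3 were higher and 2 lower. This list overlaps others and is not separate from them. Cckar was already counted among the further acinar genes, and Cckbr and Sctr are counted again below among the ECL and duct genes. Cckbr, the gastrin receptor gene, was 31.0-fold [28.4 to 33.9] and Vipr1, a receptor of vasoactive intestinal peptide, 19.1-fold [16.9 to 21.8] higher, while Sctr, the secretin receptor gene, was 36.2-fold [25.6 to 52.9] lower.

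Of 9 granule traffic genes of acinar cells, 1 was higher and 5 were lower in the sorted library, where 21.9% and 22.3% of all measured genes were. The lower count was 2 without a factor or without the 20 most abundant genes, so it depended on the scaling. Rab3d, a granule GTPase gene, was not called, at a depleted-to-sorted ratio of 1.28 [1.23 to 1.33]. Rab27b was 8.30-fold [7.56 to 9.13] lower, Itpr3, a calcium release channel gene, 4.56-fold [4.37 to 4.75] and Stxbp2 2.13-fold [2.01 to 2.25] lower. Vamp2, chosen after its value was seen, was the 1 higher member, at 6.96-fold [6.53 to 7.43]. Among genes around trypsin activity, Ctsl, a lysosomal protease gene that can degrade trypsinogen, was 6.30-fold [6.08 to 6.53] higher. Ctsb, whose product can activate it, was 2.61-fold [2.55 to 2.68] lower, Ctsd was not called at a depleted-to-sorted ratio of 1.82 [1.78 to 1.87], and F2rl1, a trypsin-activated receptor gene, was 14.0-fold [11.05 to 17.9] lower. Of the 50-base words of Ctsl 26.3%, of Ctsb 12.1% and of Ctsd 32.4% occur in other genes, mostly ones that overlap them.

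Markers of other pancreatic cells and neighbouring organs were read beside these genes. The 11 islet genes summed to 7.47 CPM after sorting and 4.50 CPM in depleted cells, and the insulin genes Ins1 and Ins2, with Mafa and G6pc2, were at 0 in both. Of the 3 islet genes measured, Ppy (21 counts against 0) and Iapp (13 against 14) were higher and Pdx1 (41 against 185) was not called, while Slc30a8 had 8 against 0. Of 7 measured duct genes 0 were higher and 4 lower, with sums of 319.6 and 4193 CPM, Krt19 being 22.1-fold [21.1 to 23.1], Muc1 13.4-fold [12.2 to 14.6] and Sctr as above lower, and Spp1 not called at a depleted-to-sorted ratio of 1.84 [1.70 to 2.002]. Krt19 at 3353 CPM and Muc1 at 557 CPM made up most of the duct sum in depleted cells. Whether these messages came from duct cells was not tested. All 6 salivary genes matched by symbol, among them Smr2, Smr3a, Bpifa2 and Muc19, were at 0 in both. Of 7 measured intestinal genes 1 was higher (Vil1, 2.79-fold [2.60 to 2.99]) and 5 lower, among them Fabp2, Apoa4 and Olfm4 by 8.61-fold [5.25 to 15.2], 2.89-fold [2.18 to 3.92] and 2.92-fold [2.07 to 4.22]. For Apoa4, 60.9% of the 50-base words occur in other genes. Of 4 measured liver genes 1 was higher (Ttr, 13.8-fold [13.2 to 14.5]) and 2 lower (Alb by 8.41-fold [3.20 to 31.3] and Apoa1 by 3.35-fold [3.17 to 3.54]), and Cps1 was not called at a ratio of 1.19 [0.751 to 1.96]. The part of these tissues in the acinar counts was not tested.

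Corpus cell types in the same libraries were as follows. All 5 ECL genes were higher (median log2 fold 8.18), Slc18a2 by 289.9-fold [266 to 316]. Of 7 genes listed for chief cells 4 were lower and 0 higher (median -1.99), among them Chia1 by 5.51-fold [5.40 to 5.62] and Ctse by 18.9-fold [17.9 to 19.9]. The fold of Ctse was closer to that of the surface mucous gene Tff2 (17.4-fold) than to that of Chia1. Whether Ctse marks chief cells here was not tested. Gif was not called at a depleted-to-sorted ratio of 1.74 [1.69 to 1.79]. Bhlha15, also in the list of acinar factors, was higher without a scaling factor or without the 20 most abundant genes. The chief genes summed to 17056 CPM after sorting and 69118 CPM in depleted cells, so chief cell messages were also in the sorted library. All 6 parietal genes were lower (Atp4a by 5.71-fold [5.60 to 5.82], Atp4b by 5.54-fold [5.37 to 5.70], Clic6 by 6.09-fold [5.76 to 6.45] and Car2 by 19.0-fold [18.2 to 19.9]), and so were all 4 measured surface mucous genes (Tff2 by 17.4-fold [16.8 to 18.1], Muc5ac by 37.5-fold [36.5 to 38.4], Gkn1 by 43.6-fold [43.0 to 44.2] and Gkn2 by 44.2-fold [43.6 to 44.9]). The 8 acinar genes lower after sorting had depleted-to-sorted ratios from 2.80 for Try10 to 8.14 for Reg3g. Mast cells, which also make histamine, had 5 of 7 genes higher, where 21.9% of all measured genes were. Over the scalings tried this count ran from 4 to 7, and the genes summed to 268 and 105 CPM. Mcpt2 and Tpsab1 were 2.30-fold [2.07 to 2.55] and 2.001-fold [1.799 to 2.22] higher. Mcpt4, Cma1 and Cpa3, named after their values were seen, were 27.9-fold [20.3 to 39.1], 15.5-fold [11.6 to 21.2] and 5.18-fold [4.40 to 6.11] higher, and Mcpt1 and Kit were not called at sorted-to-depleted ratios of 1.78 [1.59 to 1.98] and 1.85 [1.69 to 2.03]. All 6 macrophage genes were lower (Csf1r, C1qa, C1qc and Mrc1 with 5, 59, 4 and 16 counts after sorting), with sums of 7.56 and 2054 CPM. The part of these cells in the acinar counts of either library was not tested.

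**Figure D4:**
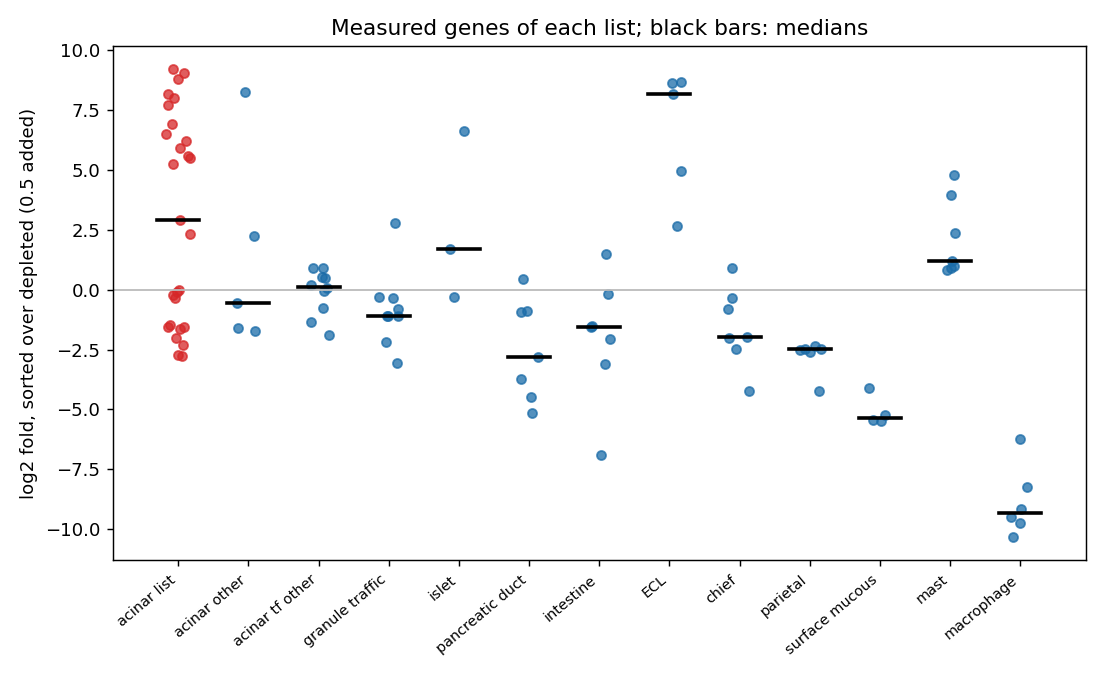
Log2 fold of each measured gene, sorted over depleted library, for the acinar list in red and 12 comparison lists in blue, with black bars at the medians. The acinar genes run from -2.78 to 9.20, the ECL genes from 2.66 to 8.69 and the macrophage genes from -10.31 to -6.23.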

How the data were processed

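RNA of 1 library of Hdc-CFP sorted and 1 of Hdc-CFP depleted corpus epithelial cells was analysed. The deposited values are whole-number read counts per Ensembl gene, made by the authors with TopHat2 2.0.07 and HTSeq on mm9, per the submitters' processing notes; the annotation and the strand setting are not given in the sources used here. Reads set aside as not unique were 24.2% and 34.3%, and as ambiguous 1.45% and 1.11%, of sorted and depleted reads. Of 37681 identifiers 32642 had a symbol.

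Counts were scaled with TMM factors (edgeR 4.0.16) on genes with at least 10 counts in 1 library, 1.13 and 0.882, a filter chosen after the factors on all genes had been seen. Folds have exact Clopper-Pearson 95% intervals (scipy 1.17.1), which cover counting error only; a count of 0 was set to 3 counts. Exon lengths and shared 50-base words came from GENCODE M21, promoters from RefSeq. Members and lists were chosen with earlier results of these data known. All 38 members were named, as were up to 4 genes of each other list with the most CPM. Alternatives were other scalings (DESeq2 1.42.0 size factors among them), count minimums, a 4-fold call, a prior count of 2 and leaving out members that share over 10% of their words. Genes of the other lists were not filtered by shared words.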

Additional observations from a re-analysis of the deposited data

How the results depend on the processing

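With 15 members higher, 8 lower and a median log2 fold of 2.90 as the reported values, the median was 3.27 without a scaling factor, 3.12 without the 20 most abundant genes of either library, 2.79 with TMM factors on all genes (chosen after seeing the data), 2.62 at a minimum of 50 counts and 2.62 without members sharing over 10% of their words. That last setting, which leaves fewer genes, left 9 members higher, and the 4-fold call left 2 lower. Folds crossed 1 without a factor for Try4 (1.19), Pnliprp2 (1.02), Clps (1.28) and Zg16 (1.09), with upper-quartile factors for Clps (1.02), and without the 20 most abundant genes for Try4 (1.07) and Clps (1.15); the cause was not tested. Try10 was not called without a factor (0.459). The median of all measured genes moved by 0.36 on the log2 scale without a factor, 0.21 without the 20 most abundant genes and -0.11 with TMM factors on all genes. Single member folds kept direction and call in 148 cases, lost the call in 7 and crossed 1 in 7.

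No paired analysis was possible because each group is 1 library. A count of 0 allows up to 0.246 CPM after sorting and 0.0668 CPM in depleted cells, so a count of 0 does not show that a gene was silent.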
